A study of Mesocricetus auratus with 8 samples.

Results

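Expression of the SLC22 organic cation and carnitine transporters was examined in Syrian hamster satellite cells (SCs), the stem cells of skeletal muscle, before and after exposure of the cultured cells to cold. The members were Slc22a3, Slc22a4, Slc22a5, Slc22a17, Slc22a18 and Slc22a23. They were chosen by gene symbol with the cold against control changes of these libraries already known, so those changes are given for the members as a description, without p-values. Of the 6 members, 5 had values, among 17590 genes with values in all. No row was matched to the symbol Slc22a5, which was not analysed here. All 5 members passed the filter on low counts, which left 12506 genes for testing.

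All cells were wild type SCs from the hindlimb muscle of sexually mature male Slc:Syrian hamsters, enriched by preplating and grown on Matrigel in growth medium at 37°C. The cells were kept for 48 h and then for a further 24 h in growth medium with 100 mM HEPES, a buffer. The 4 control libraries were made before the cold step (0 h, 37°C), and the 4 cold libraries after 24 h at 4°C. The cold cells were therefore 24 h older, with no 37°C library of that later time analysed here, and cold and added time cannot be told apart. For control replicates 1, 2, 3 and 4 the treatment labels give 3, 4, 5 and 6 days at 37°C, whereas the titles give day 3 for each of them. The study describes the libraries of a group as biological replicates, and the labels do not give the animals behind each of them.

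SLC22 proteins are membrane transporters that move organic cations, zwitterions and anions across the cell surface. Slc22a3 encodes OCT3, a transporter of high capacity and low affinity that carries monoamines such as norepinephrine and histamine in either direction. Slc22a4 encodes OCTN1, which takes up the antioxidant ergothioneine, and Slc22a5 encodes OCTN2, which takes up the carnitine that muscle needs to bring long-chain fatty acids into mitochondria. Slc22a17 encodes a receptor of the iron-carrier protein lipocalin-2. Slc22a18 lies in an imprinted cluster in mammals, and no substrate is firmly established for its product or for that of Slc22a23.

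Depth lay between 16530747 and 18533801 expected counts per library. Replicates 1 and 2 lay on one side of the first principal component (54.5% of the variance) and replicates 3 and 4 on the other, whereas cold and control libraries separated on the second (17.9%). Libraries of the same replicate number deviated together, and so, less closely, did replicates 1 and 2 and replicates 3 and 4. Beside the edgeR fit of the 2 groups, values are therefore given from a fit with a term for the replicate number (the replicate block). Calls made only with the block rest on pairing libraries by that number, whose meaning the labels do not give. A gene passed the test at a Benjamini-Hochberg adjusted p under 0.05 over all genes tested, and was a differentially expressed gene (DEG) where the log2 fold change was also at least 1 in either direction. Levels are in TPM, a transcript abundance scaled for gene length and for the depth of each library, and fold changes are cold against control on counts.

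Slc22a3 (gene 101826153) was the member with the largest difference between the groups. Its level was 15.97, 13.12, 5.71 and 8.69 TPM in control replicates 1 to 4, and 2.24, 2.67, 2.15 and 1.72 TPM in the cold replicates of the same numbers. The highest cold library lay below the lowest control library, so the groups did not overlap, and the control libraries were far more spread than the cold ones. The means were 10.87 ± 4.563 TPM in the control and 2.195 ± 0.3896 TPM in the cold libraries (SD, n = 4 each). The log2 fold change was -2.34 (SE 0.330), a fold of 5.06 lower in the cold, and -2.31 (SE 0.143) with the replicate block.

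The counts behind Slc22a3 were 547, 469, 185 and 302 in the control libraries and 81, 91, 73 and 59 in the cold ones, well above the 3 counts taken as the floor of detection. Within replicate numbers 1 to 4 the cold library held 14.0%, 20.4%, 37.7% and 19.8% of the TPM of its control. The smallest drop was in replicate 3, whose control library was the lowest of its group. Control replicates 1 and 2 were above control replicates 3 and 4, with means of 14.54 and 7.2 TPM, a ratio of 2.02. The same ratio was 1.27 in the cold libraries. By fold change Slc22a3 stood 13th from the lowest of the 12506 genes tested.

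**Figure D1:**
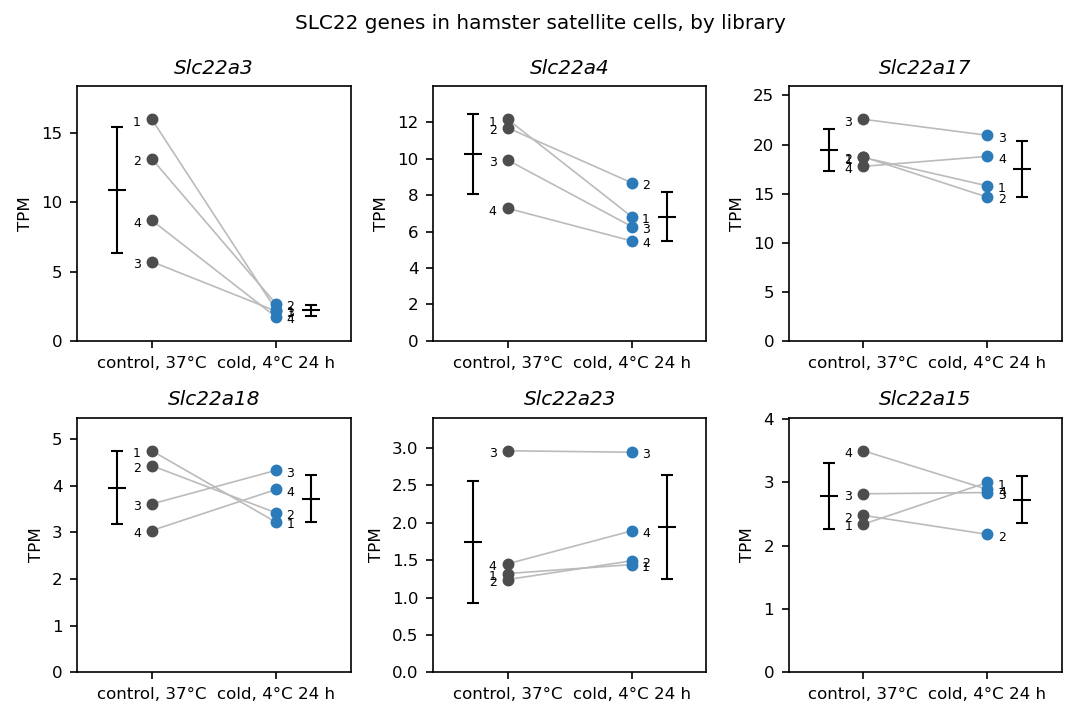
Level in TPM (vertical axes, linear from 0) of the 5 SLC22 members and of Slc22a15 in each of the 4 control and 4 cold libraries; points are libraries, lines join libraries of the same replicate number, and bars are group means with SD. For Slc22a3 the 4 cold points lie between 1.72 and 2.67 TPM, all below the lowest control point at 5.71 TPM, whereas the groups overlap in the other panels.

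Slc22a4 (gene 101842330), the OCTN1 gene, differed by less. Its level was 12.17, 11.70, 9.93 and 7.28 TPM in control replicates 1 to 4, and 6.82, 8.68, 6.28 and 5.49 TPM in the cold replicates. The groups overlapped, since cold replicate 2 lay above control replicate 4, but the cold library was the lower one under every replicate number. The cold libraries held 56.0%, 74.2%, 63.2% and 75.4% of their controls. The means were 10.27 ± 2.214 and 6.818 ± 1.356 TPM (SD, n = 4 each), with between 131 and 268 counts per library. The log2 fold change was -0.54 (SE 0.185), a fold of 1.46 lower, and -0.54 (SE 0.094) with the block. As for Slc22a3, replicates 1 and 2 were higher than replicates 3 and 4, by a ratio of 1.39 in the control and 1.32 in the cold libraries.

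Slc22a17 (gene 101830392), the gene of the lipocalin-2 receptor, was the highest of the family in every library. It measured 18.69, 18.75, 22.58 and 17.78 TPM in the control replicates and 15.79, 14.64, 20.94 and 18.80 TPM in the cold ones. The ranges overlapped, and replicate 3 was the highest library of both groups. The cold library was lower under numbers 1, 2 and 3, at 84.5%, 78.1% and 92.7% of its control, and higher under number 4, at 106%. The log2 fold change was -0.17 (SE 0.115 without and 0.075 with the block), with between 352 and 516 counts per library. The fold of 1.12 was smaller than the spread between replicates in either group.

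Slc22a18 (gene 101843538) measured 4.75, 4.43, 3.61 and 3.04 TPM in the control replicates and 3.22, 3.42, 4.33 and 3.92 TPM in the cold ones. The direction differed by replicate number: the cold library was lower under numbers 1 and 2, at 67.8% and 77.2% of its control, and higher under numbers 3 and 4, at 120% and 129%. In the control libraries replicates 1 and 2 were above replicates 3 and 4 by a ratio of 1.38, and in the cold libraries they were below, with a ratio of 0.805. The log2 fold change over all libraries was -0.11 (SE 0.192 without and 0.168 with the block). With 49 to 75 counts per library it was the most shallowly counted of the members.

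Slc22a23 (gene 101832951) had the lowest mean level of the members in both groups. It measured 1.32, 1.24, 2.96 and 1.45 TPM in the control replicates and 1.44, 1.49, 2.94 and 1.89 TPM in the cold ones. Replicate 3 stood above the other libraries in both groups, and apart from it the values lay between 1.24 and 1.89 TPM. The cold library was the higher under numbers 1, 2 and 4, at 109%, 120% and 130% of its control, and reached 99.3% under number 3. The log2 fold change of 0.18 (SE 0.283) was smaller than its error, and the SE was 0.101 with the block.

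**Figure D2:**
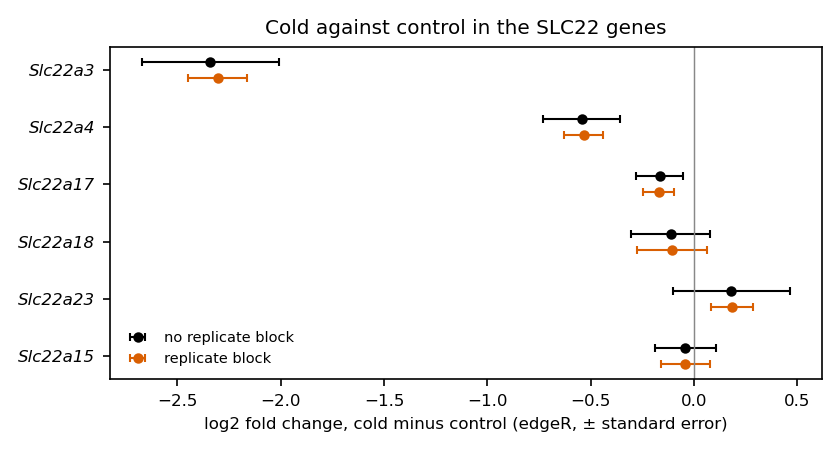
Log2 fold change of cold against control (horizontal axis) for the 5 SLC22 members and Slc22a15 from the fit without and with the replicate block; points are estimates and bars are 1 SE. Slc22a3 lies at -2.34 and Slc22a4 at -0.54, both with shorter bars under the block, and the other genes lie between -0.17 and 0.18.

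Read as counts over the 5 members, 0 passed the edgeR test without the block in either direction, and 0.0720% of all genes tested passed and were lower. At an unadjusted p under 0.05 2 members were lower, against 4.13% of all genes, and 1 member passed and was lower with DESeq2, against 0.924% of 14387 genes. With the replicate block 2 of 5 were lower (Slc22a3 and Slc22a4) against 4.07% of all genes, and 0 were higher against 1.26%. At both DEG thresholds the members numbered 0 without the block (0.0400% of all genes), 1 with it (0.808%) and 1 with DESeq2 (0.473%), Slc22a3 in both cases. Slc22a3 was also the 1 member whose cold libraries all lay below its control libraries, as did those of 2.41% of all genes. The cold library was lower in 4 of 4 pairs for 2 members, against 10.5% of all genes, and higher in 4 of 4 pairs for 0 members, against 12.8%. Since the members were selected on this contrast, these counts are descriptive.

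The table held 10 further rows of the family, of which 4 had values. Slc22a2, Slc22a13 and Slc22a14 were at 1 count or fewer in every library. Slc22a15, another transporter of the family, was measured at 2.34, 2.48, 2.82 and 3.50 TPM in the control replicates and 3.00, 2.18, 2.84 and 2.89 TPM in the cold ones. Its groups overlapped and its log2 fold change was -0.04 (SE 0.147; edgeR adjusted p = 0.999, and 0.9 with the block).

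The summed level of the 6 expressed SLC22 genes lay between 41.74 and 55.24 TPM in the control libraries and between 32.55 and 39.51 TPM in the cold ones, with means of 49.1 ± 5.803 and 34.96 ± 3.168 (SD, n = 4 each). The groups did not overlap in this sum, which contains Slc22a3 and Slc22a4. The Slc22a3 share of it ranged from 12.0% to 28.9% in the control and from 4.96% to 8.07% in the cold libraries. Slc22a17 made up 33.8% to 47.4% of the sum in the control and 44.3% to 54.2% in the cold libraries, while its own level did not separate the groups. The Slc22a4 share averaged 20.7% and 19.7%.

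**Figure D3:**
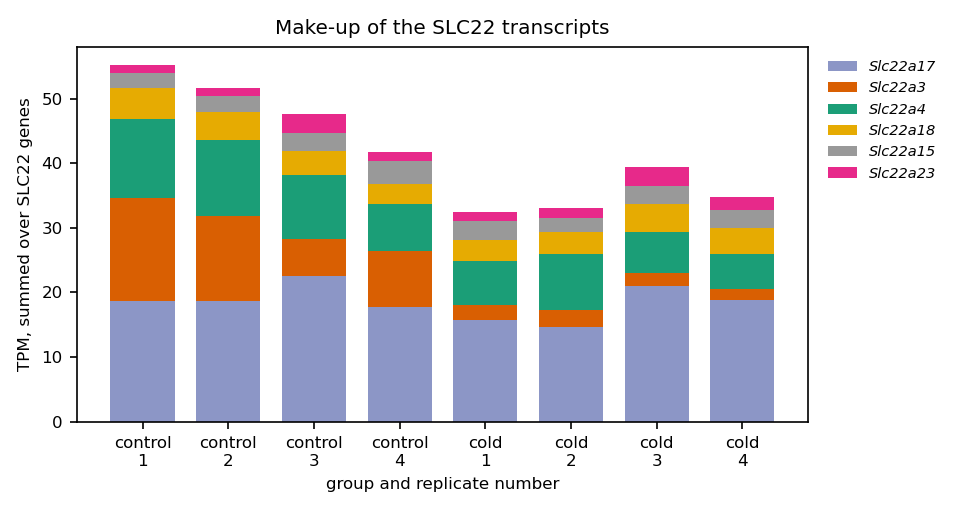
Summed TPM of the 6 expressed SLC22 genes in each library (vertical axis from 0), stacked by gene, for control and cold replicates 1 to 4. The cold columns reach 32.55 to 39.51 TPM and the control columns 41.74 to 55.24 TPM, and the Slc22a3 segment takes 4.96% to 8.07% of the cold columns.

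Ordered by mean TPM, the control libraries gave Slc22a17, Slc22a3, Slc22a4, Slc22a18, Slc22a15 and Slc22a23. Of these neighbours, Slc22a3 and Slc22a4 overlapped, as did Slc22a18 and Slc22a15, and Slc22a15 and Slc22a23. In the cold libraries the order was Slc22a17, Slc22a4, Slc22a18, Slc22a15, Slc22a3 and Slc22a23. Slc22a3 thus moved from the second to the fifth place, where its values overlapped those of Slc22a15 and of Slc22a23. Compared with all genes tested, whose median level was 16.13 TPM, Slc22a17 stood at the 53.5th percentile of mean TPM, Slc22a4 at 35.1, Slc22a3 at 30.0, Slc22a18 at 21.9 and Slc22a23 at 13.7.

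The genes that synthesise carnitine or carry fatty acids into mitochondria as carnitine esters did not pass the test. Of 10 such genes 8 were tested, and 0 passed with edgeR (0 at an unadjusted p under 0.05), 0 with the block and 0 with DESeq2. Their median log2 fold change was 0.00, against 0.01 over all genes tested. Aldh9a1, an enzyme of carnitine synthesis, averaged 86.66 TPM in the control and 86.89 TPM in the cold libraries, and Crat, which attaches acetyl groups to carnitine, 34.77 and 36.93 TPM. Cpt1b, the muscle form of the enzyme that commits fatty acids to mitochondrial import, was singled out after its values were seen, and averaged 2.74 ± 0.263 and 1.95 ± 0.682 TPM (SD, n = 4 each). Its cold library was the lower in 4 of 4 pairs, but its groups overlapped and its log2 fold change of -0.51 (SE 0.240) did not pass (edgeR adjusted p = 0.797, and 0.1 with the block). The Cpt1b value depended on single replicates: it was -0.32 without cold replicate 2, and under the block -0.27 without replicate 2 and -0.66 without replicate 4, where it passed (edgeR adjusted p = 0.0415).

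Of the PPAR nuclear receptors and their partners, which regulate fatty acid oxidation, 6 of 7 were tested and 0 passed in any of the 3 analyses (0 at an unadjusted p under 0.05), with a median log2 fold change of 0.11. This median rested on single libraries, falling to 0.024 without cold replicate 1 and to 0.021 without cold replicate 2. The 2 most abundant were Ppard, at 32.56 and 33.40 TPM, and Rxrb, at 17.10 and 18.60 TPM, in control and cold libraries.

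Of 12 genes that handle organic cations and monoamines, the substrates of OCT3, 6 were tested, 0 passed in any of the 3 analyses (0 at an unadjusted p under 0.05), and their median log2 fold change was -0.01. Maoa, which oxidises monoamines, averaged 21.13 TPM in the control and 21.09 TPM in the cold libraries. The list for lipocalin-2 and iron, set beside Slc22a17, had 6 of 9 genes tested and 0 passing in any of the 3 analyses (0 at an unadjusted p under 0.05), with a median of -0.04. Lcn2, the gene of lipocalin-2 (0 to 7 counts per library), and Lrp2 (0 to 4 counts) did not pass the filter. The result therefore covers the iron genes of the list and not lipocalin-2 itself. The most abundant genes of the list encode the ferritin chains that store iron, Fth1 at 2419 and 2514 TPM and Ftl at 551.8 and 511.6 TPM.

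Among 11 genes that neighbour Slc22a18 or Slc22a3 in the imprinted clusters of mammals, 7 were tested. Like the other lists, this one was drawn up with earlier results of these data known, so its counts are descriptive. Without the block 0 passed with edgeR (3 were lower at an unadjusted p under 0.05), with DESeq2 1 did, and with the block Cdkn1c and Igf2 fell, 2 of 7 against 4.07% of all genes. Cdkn1c, an inhibitor of cyclin-dependent kinases, averaged 144.5 ± 41.26 TPM in the control and 81.08 ± 8.177 TPM in the cold libraries, without overlap between the groups. Its log2 fold change was -0.86 (edgeR adjusted p = 0.252) and -0.82 with the block (adjusted p = 1.38e-06). Igf2, a growth factor of muscle, averaged 45.65 ± 8.331 and 31.62 ± 6.275 TPM, with a log2 fold change of -0.55 under the block (edgeR adjusted p = 1.29e-05, and 0.503 without it). The most abundant of the list were Cd81, at 291.3 and 270.2 TPM, and Nap1l4, at 152.6 and 160.9 TPM.

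The list for the OCTN locus, where SLC22A4 and SLC22A5 lie beside each other in mammals, had 4 of 5 genes tested. Without the block 0 passed with edgeR (1 was higher at an unadjusted p under 0.05) and 0 with DESeq2, and with the block Pdlim4, an actin-associated LIM protein, fell, 1 of 4 against 4.07% of all genes. It averaged 427.2 ± 68.44 TPM in the control and 351.0 ± 28.57 TPM in the cold libraries (SD, n = 4 each), with a log2 fold change of -0.26 under the block (edgeR adjusted p = 0.00145, and 0.824 without it). P4ha2, a collagen prolyl hydroxylase, averaged 31.62 and 29.41 TPM.

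**Figure D4:**
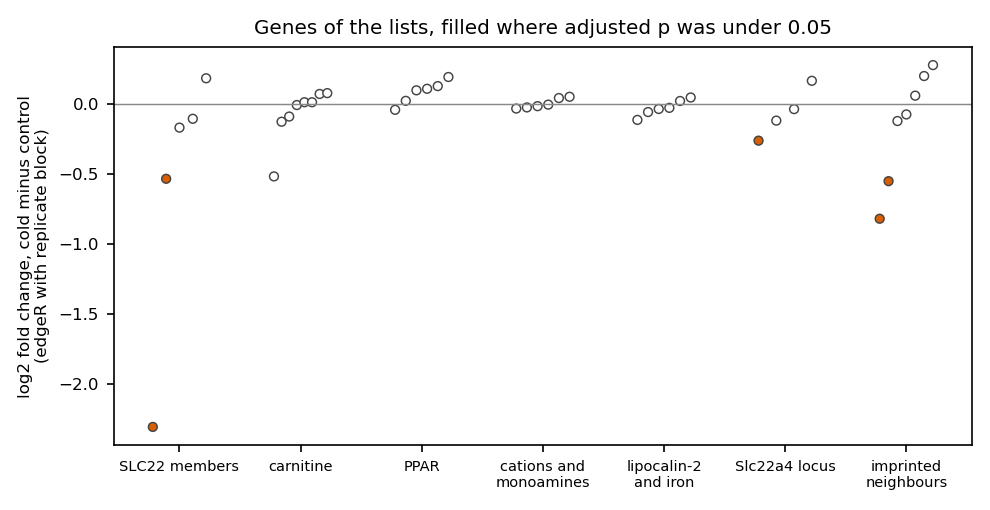
Log2 fold change of cold against control from edgeR with the replicate block (vertical axis) for the 5 SLC22 members and each tested gene of the 6 lists set beside them (horizontal axis, by list); each point is a gene, filled where its adjusted p was under 0.05. Slc22a3 at -2.31 lies below every listed gene, the lowest of which is Cdkn1c at -0.82, and the other filled points are Slc22a4, Igf2 and Pdlim4.

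The nearest genes with values on each side of the members were also compared, in the gene order of a RefSeq annotation of the hamster. Of 20 such neighbours 14 were tested, and 0 passed without the block with edgeR (1 at an unadjusted p under 0.05) and 1 with DESeq2. With the block 2 of 14 were lower, against 4.07% of all genes: Pdlim4 beside Slc22a4 and Cdkn1c beside Slc22a18. Both are the genes already counted in the lists above. Map3k4, the neighbour of Slc22a3 that codes for a kinase of stress signalling, averaged 11.06 and 11.78 TPM, whereas Slc22a2, on its other side, was not detectable at this depth. Beside Slc22a4, the gene LOC101832253 averaged 0.300 TPM in the control and 0.283 TPM in the cold libraries. It carries only this locus name in the table and in the annotation, and its identity was not resolved here. Phlda2, an imprinted neighbour of Slc22a18, averaged 5.63 and 6.59 TPM, and Kcnq1, another, was at 1 count or fewer in every library.

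Genes with the most similar pattern to each member were found by Pearson's r of log2(TPM + 1) over the 8 libraries among 11472 genes. These r values are descriptive, since the points share 2 groups and 4 replicate numbers. Nearest to Slc22a3 were Klhl13, an adaptor of a ubiquitin ligase (r = 0.996), and Myom3, a protein of the sarcomeric M band (r = 0.994). Klhl13 was alike in shape but not in size, averaging 43.05 TPM in the control and 33.84 TPM in the cold libraries, whereas Myom3, at 10.84 and 2.63 TPM, was close to Slc22a3 in level and in difference as well. In all 156 genes had an r of at least 0.9 with Slc22a3.

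For Slc22a4 the nearest were Castor2, a partner of an arginine sensor, and Nmrk2, a muscle kinase of NAD synthesis, both with an r of 0.979. The nearest to Slc22a17 were Yif1b (r = 0.979) and Bsg, the immunoglobulin-family protein basigin (r = 0.955), and to Slc22a23 they were Mapk3, the kinase ERK1 (r = 0.987), and Clstn1, a calsyntenin (r = 0.982). Slc22a18 had 4 genes with an r of at least 0.9, the fewest of the members, led by LOC101826471 (r = 0.945) and Pigy (r = 0.941).

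Marker genes were read in the same libraries to describe the cells. All 6 myogenic markers were expressed, with summed levels of 1865 to 2271 TPM in the control and 1808 to 2134 TPM in the cold libraries. Of the 6, 0 passed with edgeR without the block (0 at an unadjusted p under 0.05) and 0 with DESeq2, and with the block 2, Myod1 and Cdh15, were lower, against 4.07% of all genes. All 7 markers of differentiating muscle were lower with the block, while 0 passed without it with edgeR (5 at an unadjusted p under 0.05) and 5 with DESeq2. Their median log2 fold change was -1.44.

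The sum of the differentiation markers was lower in the cold libraries, as Slc22a3 was. Slc22a3 was chosen with its change known, and the paper reports the markers Acta1 and Tnnt1 among its DEGs of these same libraries. Their shared fall in the cold is therefore a description and no independent observation. The marker sum was 2527, 2518, 1323 and 1400 TPM in control replicates 1 to 4 and 1048, 1197, 798.2 and 701.6 TPM in the cold replicates, without overlap. As with Slc22a3, control replicates 1 and 2 were the 2 highest libraries, and the cold libraries were below all controls. In bulk RNA, fewer cells of a type and less RNA per cell cannot be told apart, and the part of differentiation in the Slc22a3 values was not tested.

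**Figure D5:**
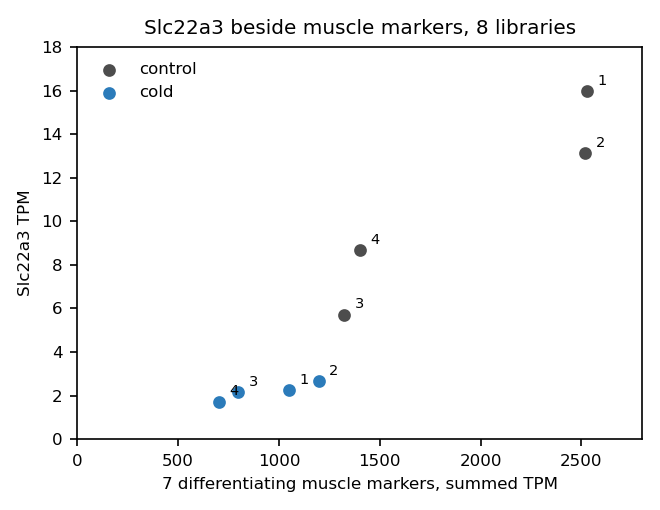
Slc22a3 level in TPM (vertical axis) against the summed TPM of 7 markers of differentiating muscle (horizontal axis); each point is a library labelled by its replicate number, coloured by group. Cold libraries lie at marker sums of 701.6 to 1197 TPM and Slc22a3 levels of 1.72 to 2.67 TPM, control replicates 3 and 4 at sums of 1323 and 1400 TPM, and control replicates 1 and 2 at 2527 and 2518 TPM.

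The libraries also held RNA of fibroblast marker genes, 6 of 7 of which had values. Their sums were 1004, 998.4, 1317 and 1509 TPM in control replicates 1 to 4 and 1060, 983.7, 1333 and 1468 TPM in the cold ones, so that replicates 3 and 4, in which Slc22a3 and Slc22a4 were lower, were the higher in both groups. Of the 6 fibroblast genes 0 passed in any of the 3 analyses (0 at an unadjusted p under 0.05). Of the 5 macrophage and leukocyte markers, Ptprc, Adgre1 and Itgam were at 3 counts or fewer in every library, and the sum of the list ranged from 25.98 to 54.27 and from 26.46 to 55.71 TPM, with its 2 highest control and 2 highest cold libraries being replicates 3 and 4. Endothelial sums (2.49 to 4.14 and 2.41 to 4.02 TPM) were highest in replicates 3 and 4 of both groups as well, and the part of these cell types in the SLC22 values was not tested. Endothelial sums, Schwann cell sums (2.39 to 3.91 and 2.41 to 3.35 TPM) and adipocyte sums (0.21 to 0.86 and 0.22 to 1.08 TPM) were low in both groups.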

How the data were processed

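RNA-seq of 4 control and 4 cold SC libraries was used. The authors deposited one table with expected counts per gene, made from paired-end reads and not normalized, TPM values, which the authors scaled within each library, and normalized counts, a signal the authors scaled by library, which were not used in tests. The submitters' processing notes name HISAT and HISAT2. The counting program and the genome build are not given in the sources used here, so no coordinates are printed. Symbols came from the table, and gene order from RefSeq (BCM_Maur_2.0), in which all 17590 identifiers matched.

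After rounding to whole numbers, the expected counts were analysed in edgeR 4.0.16 (filterByExpr, TMM, quasi-likelihood F test) in R 4.3.3, after the procedure was tested on simulated data. P-values were adjusted by Benjamini-Hochberg over all genes tested. DEGs were defined by an adjusted p under 0.05 and a log2 fold change of at least 1. SEs are the absolute log2 fold change over the square root of F. Deviations from the group means correlated between 0.609 and 0.659 for control and cold libraries sharing a replicate number in the titles, and at most 0.591 for other pairs, so numbers were taken to pair libraries, although the labels do not say what they mark. Correlations are across genes, which are not independent. Alternatives were DESeq2 1.42.0, with and without the block, RLE factors or library totals as scaling, no filter, a mean of at least 10 counts in both groups, limma 3.58.1 on log2(TPM + 0.1) or log2(TPM + 1) for genes with at least 0.1 TPM in 4 libraries, and leaving out libraries.

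The members and gene lists were chosen with earlier results of these data known. Named were all members and SLC22 genes with values, list genes passing the test with or without the block, the 2 of each list with the highest mean TPM, the 2 nearest genes on each side, and the 2 genes of most similar pattern with a mean of at least 1 TPM; some genes that this rule names are not reported here. Depth was 16530747 to 18533801 expected counts per library, and the floor of 3 counts covers counting error only. Figures were drawn with matplotlib 3.10.9.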

Additional observations from a re-analysis of the deposited data

Results flagged for a closer look

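Slc22a23 in control replicate 3 stood far from the other control libraries, at 2.96 TPM against 1.24 to 1.45 TPM. The gap to the nearest library was 0.878 of the range of the group, above the critical value of Dixon's test for 4 samples. The cold library of the same number, at 2.94 TPM, was the highest of its group as well. Of the 12 groups of 4 examined (6 SLC22 genes in control and cold libraries), 1 was singled out in this way, and chance alone gives about 1 in 20.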

How the results depend on the processing

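The members were chosen with this contrast known, so whether they pass under a setting is given here as a description only. Slc22a3 was lower in the cold under each of 21 alternatives, with log2 fold changes from -2.57 to -1.81, the latter with limma on log2(TPM + 1). It passed the test with DESeq2 (-2.34), DESeq2 with the replicate block (-2.25), library totals (-2.33), no filter (-2.35), the edgeR block (-2.31) and without control replicate 3 (-2.57; range over single libraries left out -2.57 to -2.08), and with the block when each replicate number was left out (-2.07, -2.29, -2.54 and -2.32 without replicates 1 to 4, an alternative added after seeing the data). Slc22a4 was also lower in all 21 (-0.69 to -0.45) and passed with the block in edgeR (-0.54), in DESeq2 (-0.53) and without any one number (-0.45, -0.54, -0.56 and -0.61 without replicates 1 to 4). Slc22a17 passed with the block without replicate 4 (-0.27; range -0.27 to -0.10 over replicate numbers left out). Slc22a18 turned to 0.062 with the block without replicate 1 (range over left-out libraries -0.26 to 0.06), Slc22a23 to -0.086 without cold replicate 3 (range -0.086 to 0.468), and Slc22a15 to 0.038 without cold replicate 2, 0.063 without control replicate 4, and 0.008 and 0.031 with the block without replicates 2 and 4 (range -0.108 to 0.063 over single libraries left out). The causes were not tested.

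Of the members, 0 passed and were lower with edgeR, 1 with DESeq2, library totals or no filter, 2 with the block in edgeR or DESeq2, and 0 to 3 with libraries left out. Over all genes, those passing and lower numbered 9, against 133 with DESeq2, 314 with DESeq2 and the block, 14 with library totals, 4 with limma at either pseudocount, 4 at a mean of 10 counts, 25 without a filter and 509 with the block. Leaving out single libraries gave 0 to 45, the highest without control replicate 3, and leaving out replicates 1 to 4 in turn under the block 353, 340, 472 and 608. Genes passing and higher numbered 0, against 3 with DESeq2, 36 with DESeq2 and the block and 158 with the block (0 to 1 without single libraries, 41, 16, 102 and 319 under the block without replicates 1 to 4). DEGs lower in the cold numbered 5, against 68, 90, 8, 3, 3, 3, 15 and 101 under the same alternatives in that order (limma at each pseudocount) and 9 with no fold threshold (0 to 33 without single libraries, 81, 97, 131 and 114 under the block without replicates 1 to 4). DEGs higher numbered 0, against 1 with DESeq2 and the block and 5 with the block (0 to 1 without single libraries, and 7, 4, 4 and 3 under the block without replicates 1 to 4). Cdkn1c, Igf2, Pdlim4, Slc6a13, Slc4a3 and Cpt1b were lower under all 21. The 126 list medians under alternatives all lay within -0.16 to 0.13. The yardstick was an error of each list's median, from 0.031 (imprinted neighbours) to 0.125 (OCTN locus), and not the spread of its genes. Of the 126, 119 moved by less than this error. The other 7 came from leaving out single libraries: the PPAR medians given above, the carnitine median at -0.047 without cold replicate 1 or 2 and -0.073 without control replicate 4, and the lipocalin-2 and iron median, which turned to 0.009 without cold replicate 4 and 0.025 without control replicate 1. Depth limits Slc22a18 most, at 49 to 75 counts.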

Other observations

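Among all 191 solute carrier genes tested, a list drawn up after values were seen, Slc22a3 had the lowest log2 fold change and Slc22a4 the 6th lowest, while Slc22a17, Slc22a18 and Slc22a23 stood 21st, 38th and 186th. The median of the 191 was -0.02. With edgeR 0 passed without the block (10 at an unadjusted p under 0.05), 1 passed and was lower with DESeq2, and with the block 8 were lower (4.19%, against 4.07% of all genes) and 0 higher. Between Slc22a3 and Slc22a4 in this order stood Slc6a13, a transporter of GABA and taurine, at 1.07 TPM in the control and 0.580 TPM in the cold libraries (log2 fold change -0.88), and Slc4a3, an anion exchanger, at 6.91 and 4.27 TPM (-0.72). Both were among the 8 that were lower with the block. For Slc6a13 that call (edgeR adjusted p = 0.0456) was lost with DESeq2 and the block (adjusted p = 0.617) and, in edgeR with the block, without replicate 1, 2 or 4 (adjusted p = 0.223, 0.109 and 0.168).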
